A study of Saccharomyces cerevisiae with 39 samples.

Results

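The comparison described here sets nascent RNA 50 min after the start of Abf1 depletion against nascent RNA of the same strain before depletion. Its members are 6 of the 39 libraries of the series, the 3 replicates of Abf1 50 min and the 3 of Abf1 0 min, taken by the group and replicate number in their titles. Of 6420 features in the count table, 5722 had enough counts to be tested. Genes are counted as called when the adjusted p-value of edgeR's quasi-likelihood test was under 0.01 and the fold change over 1.5. By that rule 152 genes (2.66% of those tested) were higher at 50 min and 605 (10.6%) were lower. At an unadjusted p under 0.05 the shares were 20.2% and 18%.

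Both groups came from a MATalpha BY4742 strain that carried the tor1-1 allele, lacked FPR1 (fpr1del) and had the ribosomal protein gene RPL13A fused to FKBP12 (RPL13A-FKBP12-NAT). In the same cells ABF1 was fused to FRB, yEGFP and 3V5 (Abf1-FRB-yEGFP-3V5-hphMX4). Rapamycin joins FRB to FKBP12, so that ribosomal subunits leaving the nucleus carry Abf1 out with them. The 50 min cells had 7.5 µM rapamycin for 50 min, whereas the 0 min cells had the solvent DMSO alone for 90 min. All cells were given 5 mM 4-thiouracil (4tU) for 6 min before harvest, with the stated time at the middle of the labelling, and the labelled RNA was isolated and sequenced (4tU-seq). The untagged strain (WT) has the same 3 background alleles and was measured after 90 min of DMSO (WT 0 min) and after 90 min of rapamycin (WT 90 min), so no WT group matches the 50 min time. Abf1 carried its tag in the 0 min cells too, and the depletion itself was not measured in these files. The labels do not say whether replicates were separate cultures, whereas the study's methods call them biological replicates.

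Abf1 binds DNA, is needed for life in budding yeast and belongs to the general regulatory factors, proteins that bind promoters and keep them free of nucleosomes. Its sites lie upstream of genes for many housekeeping functions, and bound Abf1 can also stop RNA polymerase II that runs on from a neighbouring gene. Because 4tU is taken up shortly before harvest, the recovered RNA reports mainly on recent synthesis and less on older, stable transcripts.

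The DNA sequence that Abf1 recognises was searched for on both strands of a window from 250 bases before to 50 bases after the start of each gene, using RefSeq promoter sequences of assembly R64 (sacCer3). The Abf1 motif was searched in its degenerate consensus form, and 753 of 6431 RefSeq nuclear genes (11.7%) had a match. Examples of the matches upstream of genes that were lower at 50 min are shown first, since most of the lower genes had a match. They are written 5′ to 3′ on the strand of the gene, with the motif in capitals and 8 bases on each side.
TFB1: ccacaaccCGTGGGACATGATaaggctgc
NPC2: gccgaaacGTCACCTCCCACGgtttggat
CHO1: tggtcaaaATCACTTTGAACGttcacacg
MGE1: ttggcataCGTATTCAGTGATattttaat
SUP35: tacatcatCGTATAATATGATctttcttt
RPN1: ttaatgttCGTAGAAGATGATgtgtttta
TAF14: tttttaaaATCACTCAAGACGagaaagct
CHS5: aaaaagatGTCACTTAAGACGgaaattat
SKI2: ttaatgatATCACGACGGACGaagtattg
WIP1: aggtacatCGTGAGGAGTGATattctggg

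These windows lie at TFB1 chrIV:1084921-1084949 (plus strand), NPC2 chrIV:371052-371080 (plus strand), CHO1 chrV:208657-208685 (minus strand), MGE1 chrXV:774341-774369 (plus strand), SUP35 chrIV:808132-808160 (plus strand), RPN1 chrVIII:164858-164886 (minus strand), TAF14 chrXVI:305124-305152 (plus strand), CHS5 chrXII:787487-787515 (plus strand), SKI2 chrXII:919143-919171 (minus strand) and WIP1 chrIV:1224625-1224653 (plus strand). The Abf1 motif was not restricted to genes that fell. The matches upstream of 4 genes that were higher at 50 min are shown for comparison.
VIR1: acggaagaCGTTAACAATGACatatggat
BIL2: aaaacaatCGTCAAGAGTGACaaatacat
RNP1: gaatcagcGTCACTGTCGACGatacaaca
ATG36: agataaacATCGTTATACACGtacgatct

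They lie at VIR1 chrVII:428373-428401 (plus strand), BIL2 chrVII:465591-465619 (minus strand), RNP1 chrXII:47644-47672 (minus strand) and ATG36 chrX:83117-83145 (minus strand). Several of the printed matches, among them those of NPC2, CHO1 and CHS5, also have the stricter form TCACNNNNNACG, which 5.60% of all RefSeq nuclear genes have in this window on either strand. A match describes the letters present and was not tested for binding.

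The 6 libraries held between 4707932 and 6509811 counts. ABF1 itself gave 795, 666 and 735 counts per 1000000 counts (CPM) at 0 min and 806, 896 and 860 CPM at 50 min, a log2 fold change of 0.22 ± 0.12 (SE, n = 3 and 3; adjusted p = 0.175, edgeR). FPR1, LEU2, URA3 and LYS2, which are deleted in the strain background, had no counts in these libraries. The genes specific to MATalpha cells summed to between 1332 and 3344 CPM at 0 min and between 1183 and 2708 CPM at 50 min, and the genes specific to MATa cells to between 61.4 and 87.3 CPM over both groups. Replicates varied more among the tagged libraries (biological coefficient of variation 17.2%) than in WT (4.80%). Replicates 1 and 2 of Abf1 50 min differed most of all pairs within the groups, and replicate 2 was the highest of the 3 libraries at 50 min for 104 of the 152 higher genes, compared with 39.2% of all features tested. Without that library 81 genes were called higher, and without replicate 1 of Abf1 0 min 90, so several of the counts and medians below are also given without a single library. No reference RNA was added, so all changes are shares of a library's labelled RNA.

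The decreases were larger than the increases as well as more numerous. The median log2 fold change over all 5722 features was 0.07, with the middle 50% between -0.23 and 0.26. The 605 lower genes had a median of -1.33, which left a median of 39.8% of their level at 0 min. Of these, 421 fell more than 2-fold, 151 more than 4-fold and 52 more than 8-fold. The 152 higher genes had a median of 0.83, or 1.78-fold, with 52 above 2-fold, 16 above 4-fold and 9 above 8-fold. The 3 libraries at 50 min did not overlap the 3 at 0 min in 147 of the 152 higher genes and 600 of the 605 lower genes, beside 17.2% and 17.1% of all features tested that were separated upwards and downwards. The lower genes comprised 596 protein-coding genes, 8 small nucleolar RNAs and 1 small nuclear RNA.

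**Figure D1:**
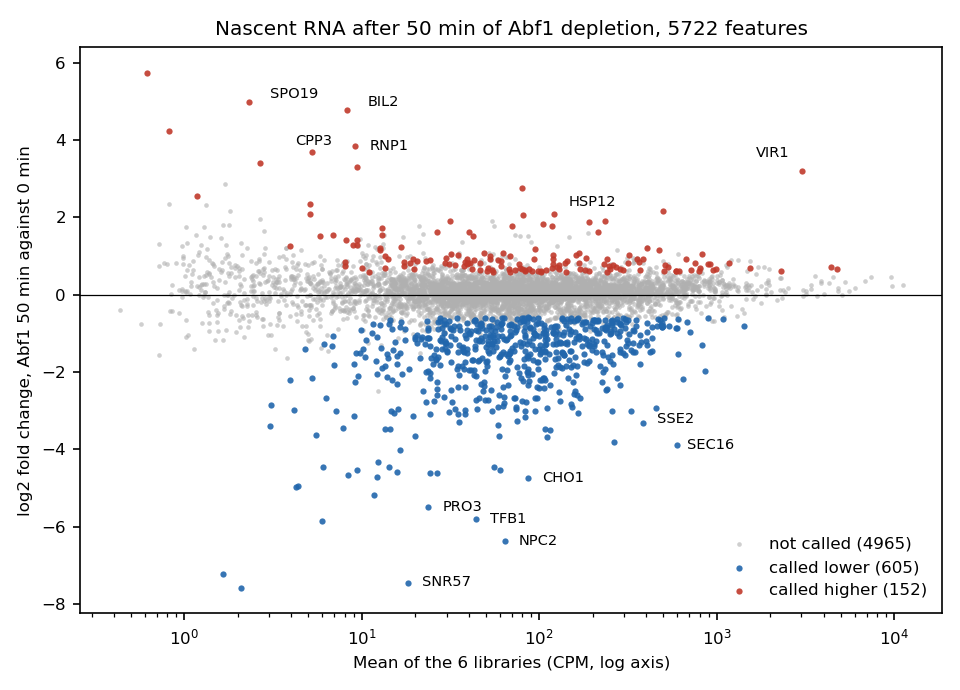
Log2 fold change between Abf1 50 min and Abf1 0 min (vertical axis) against the mean of the 6 libraries in CPM (horizontal log axis), with 1 point per feature and called genes in colour. The 605 lower genes reach further from 0 than the 152 higher genes, and VIR1 is the gene far above 0 at a high level.

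Among the genes that rose, VIR1 stood out by its level. It encodes a subunit of the complex that writes N6-methyladenosine (m6A) on mRNA in meiotic yeast cells. VIR1 had 660, 462 and 650 CPM at 0 min and 4884, 6518 and 4981 CPM at 50 min. The lowest library at 50 min was thus far above the highest at 0 min, and the change was 9.25-fold (log2 3.21 ± 0.13, SE; adjusted p = 8.67e-19, edgeR). Of the other members of the complex, MUM2 had a log2 fold change of 0.15 and KAR4 of 0.05, neither called, while IME4 and SLZ1 had too few counts to be tested (at most 0.667 and 0.825 CPM in any of the 6 libraries; IME4 overlaps another annotated gene). PNC1, the divergent neighbour of VIR1, was singled out after its values were seen. It changed by 0.40 on the log2 scale (adjusted p = 0.0356, edgeR) and was not called.

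The steepest increases relative to 0 min were in genes that were close to silent before depletion. BIL2, an inhibitor of formins, which assemble actin cables, had 0.903, 0.543 and 0.202 CPM at 0 min and 13.3, 18.7 and 16.1 CPM at 50 min. RNP1, a protein with RNA recognition motifs, went from 1.08, 1.81 and 0.606 CPM to 17.6, 18.0 and 16.1 CPM, and CPP3, a small tail-anchored protein of the plasma membrane, from 0.903, 0.543 and 0.808 CPM to 14.2, 6.67 and 8.45 CPM. In each of these genes every library at 50 min lay above every library at 0 min, which was a condition of the rule that named them. The log2 fold changes were 4.78 ± 0.46 for BIL2, 3.84 ± 0.34 for RNP1 and 3.68 ± 0.41 for CPP3 (SE; edgeR adjusted p = 5.33e-10, 5.63e-11 and 8.35e-09). All 3 remained called without each of the 6 libraries in turn. Their counts at 0 min were too few for the count filter, which they passed through libraries in which they were higher. Their calls therefore add no separate support.

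**Figure D2:**
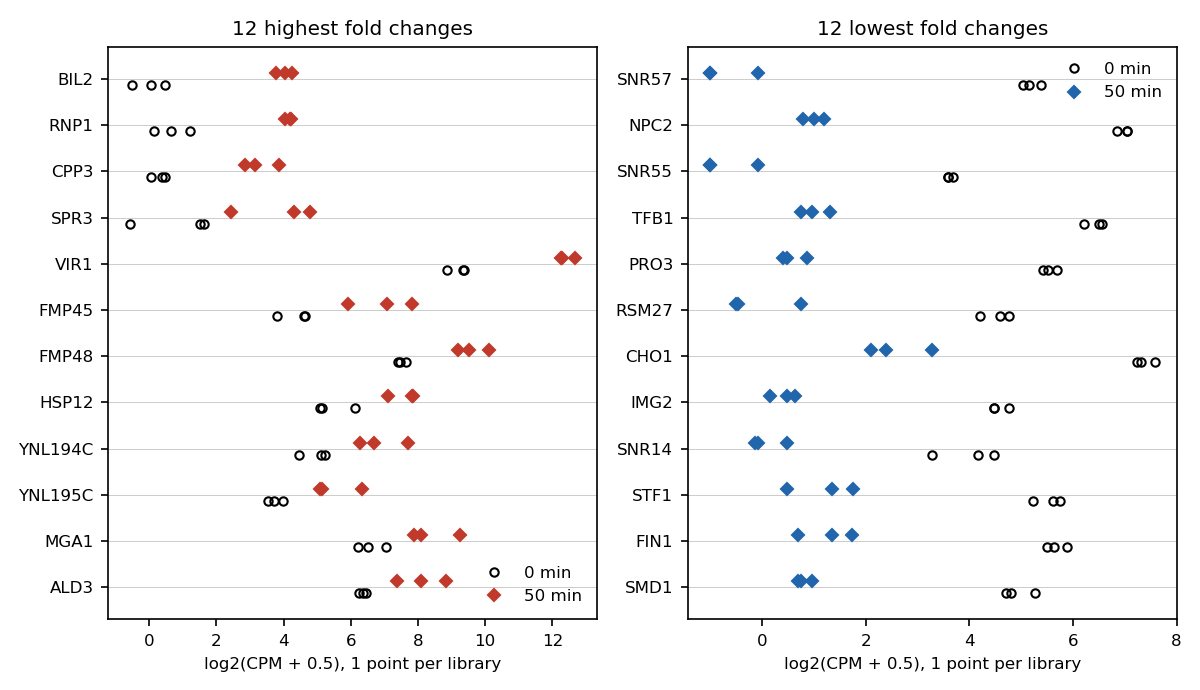
Level of each library on a log2(CPM + 0.5) scale (horizontal axis) for the 12 highest and the 12 lowest fold changes among well-counted genes, with open circles for Abf1 0 min and filled diamonds for Abf1 50 min. The groups are separate in every gene shown because the rule of selection required it. SPR3 and FMP45 show the widest spread at 50 min, where replicate 2 is highest in both.

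Genes of meiosis and sporulation, which growing haploid cells keep low, formed the list with the largest number of increases. Of its 54 members 40 had enough counts to be tested, and 9 of these were called higher (22.5%, beside 2.66% of all features) and 0 lower, with a median log2 fold change of 0.59. SPO19, a protein of the forming spore membrane, gave 2 counts in all at 0 min and 79 at 50 min, a ratio of 38.2 with a 95% counting interval from 10.2 to 321. With so few counts at 0 min it passed the count filter only through libraries in which it was higher, so its call adds no support for the list. REC102, which is needed for the DNA breaks that start meiotic recombination, had 1.99, 2.53 and 1.21 CPM at 0 min and 7.47, 11.3 and 6.18 CPM at 50 min, with no overlap (log2 2.09 ± 0.47, SE; adjusted p = 0.000943, edgeR), and was not called without 0 min replicate 3. SPR3, a septin of sporulating cells, had 0.181, 2.35 and 2.63 CPM at 0 min and 4.93, 27.3 and 19.2 CPM at 50 min. It was not called without 50 min replicate 2 (adjusted p = 0.0479, edgeR) or 3, nor without 0 min replicate 1, 2 or 3. Of the other members, SSP2, a regulator of spore wall formation, was called at 1.55 on the log2 scale, but without only 1 of the 6 libraries in turn. The number called depended on the libraries. It was 2 (SPO19 and REC102, list median 0.41) without 50 min replicate 2, and 5, 4 and 3 without 0 min replicates 1, 2 and 3. In the test of the difference from WT 1 member was called.

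HSP12, CTT1 and FMP48 were also among the genes that rose. HSP12, a membrane-stabilising small heat shock protein, had 35, 69.5 and 33.1 CPM at 0 min and 224, 228 and 138 CPM at 50 min (log2 2.10 ± 0.36, SE; adjusted p = 2.99e-05, edgeR). CTT1, the cytosolic catalase, had 125, 98.2 and 89.7 CPM at 0 min and 325, 422 and 223 CPM at 50 min (1.63 ± 0.32; adjusted p = 0.000205). FMP48, a predicted protein kinase, rose 4.47-fold from 170, 176 and 198 CPM to 739, 1106 and 588 CPM. The groups did not overlap in these 3 genes, though the rule that names the highest fold changes required this. Each was called without replicate 2 of Abf1 50 min. The last point did not hold for FMP45, YNL194C and YNL195C (membrane proteins and a neighbouring gene of unknown function), the aldehyde dehydrogenase ALD3 and MGA1, a protein similar to heat shock transcription factors. For MGA1 that library had 609 CPM and the other 2 had 233 and 274 CPM, and without it the adjusted p was 0.0741 (edgeR). FMP45 and YNL194C are similar in sequence, and reads may be shared between them.

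Most members of the stress lists were not called. Of 28 heat shock chaperones tested, HSP12, HSP30 and BTN2 were called higher (10.7%, beside 2.66% of all features), SSE2 lower and 24 neither. The list median was 0.26. HSP30, a membrane protein of the stress response, rose 2.08-fold and BTN2, a sorting factor for misfolded proteins, 1.58-fold. SSE2, a nucleotide exchange factor for Hsp70, went the other way, from 409, 885 and 795 CPM to 66.8, 85.6 and 55.5 CPM (log2 -3.33 ± 0.32, SE; adjusted p = 4.36e-10, edgeR). Of 29 genes of oxidative stress defence, CTT1 and the glutaredoxin GRX1 were called higher (6.90%), the thioredoxin TRX1 lower and 26 neither. Trehalose and glycogen genes had 3 of 17 called higher (17.6%; TSL1, TPS1 and ATH1), 16 of 17 values above 0 and a median of 0.46. None of these 3 was called without replicate 2 of Abf1 50 min, where the list median was 0.27. Calls were also lost for HSP30 without 50 min replicate 1, for BTN2 without 0 min replicate 1, and for GRX1 without any of 4 of the 6 libraries. Among high-count genes the polyubiquitin gene UBI4, chosen after its values were seen, had 468, 621 and 545 CPM at 0 min and 942, 884 and 1040 CPM at 50 min (log2 0.81; adjusted p = 0.000129, edgeR).

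Of 36 autophagy genes 5 were called higher (13.9%, beside 2.66% of all features), 0 lower and 31 neither. Of the 36 log2 fold changes 35 were above 0, with a median of 0.33 beside 0.07 for all features, and 2 members were called in the difference from WT. The largest was ATG36, the receptor for autophagy of peroxisomes, with 19.9, 21.3 and 18.4 CPM at 0 min and 63.2, 56.4 and 63.3 CPM at 50 min. Its replicates were close within each group, and it rose 3.07-fold (log2 1.62 ± 0.15, SE; adjusted p = 1.44e-10, edgeR). ATG45, a receptor for autophagy of glycogen, and ATG32, the receptor for mitochondria, were called at 0.92 and 0.89 on the log2 scale. ATG1, the kinase that starts autophagy, and ATG8, a ubiquitin-like protein of the autophagosome membrane, were called at 0.77 and 0.66 but not without replicate 2 of Abf1 50 min, where 3 members were called and the median was 0.22. Autophagy and nitrogen catabolite genes are known to respond to rapamycin in ordinary strains. In WT the median of the autophagy list was -0.02 after 90 min of rapamycin.

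Nitrogen catabolite genes serve the use of poor nitrogen sources. Of 22 tested, 17 had values above 0, with a list median of 0.34 (0.21 without 50 min replicate 2), and 18 were not called. The urea transporter DUR3 (1.02 on the log2 scale) and the activator GAT1 (0.61) were called higher, and the arginase CAR1 (-0.85) and the repressor GZF3 (-0.69) lower. This is 9.09% in each direction, beside 2.66% higher and 10.6% lower of all features. DUR3 had 22.2, 22.3 and 24.0 CPM at 0 min and 44.8, 47.3 and 47.0 CPM at 50 min, values that hardly varied within a group, and DUR3 and GZF3 were called without each library in turn, unlike GAT1 and CAR1. Of the high-count genes named by rule, ERO1, which drives disulphide formation in the endoplasmic reticulum, rose 1.61-fold, DDR48, a stress protein, 1.54-fold and SPO24, a small sporulation protein, 1.76-fold. Single members of other lists were called higher. They were MET16 of 22 sulphur assimilation genes (list median 0.57, and 0.34 without 50 min replicate 2), ENO1 of 20 glycolysis genes, with TDH2 lower, and PTI1 of 20 genes of mRNA cleavage and polyadenylation, in which FIP1, RNA14, PTA1 and CFT1 were lower. Of 31 cell wall genes PIR3 and CWP1 were higher and the kinase MKK1 lower. MET16, PTI1 and PIR3 were not called without replicate 2 of Abf1 50 min, nor without 0 min replicate 2. PTI1 also lost its call without 0 min replicate 1, and PIR3 without 0 min replicate 3. SPO24 and ENO1 were each called without only 2 of the 6 libraries, and DDR48 was not called without 0 min replicate 1 or 2.

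The genes with the strongest decreases had different functions and lost nearly all labelled RNA. TFB1, a core subunit of the general transcription factor TFIIH, had 74.2, 89.9 and 93.5 CPM at 0 min and 1.19, 2.00 and 1.44 CPM at 50 min, a 56.2-fold decrease (log2 -5.81 ± 0.32, SE; adjusted p = 1.71e-15, edgeR). NPC2, a sterol carrier of the vacuole, fell from 114, 132 and 132 CPM to 1.49, 1.78 and 1.24 CPM (-6.37 ± 0.39; adjusted p = 1.47e-14). PRO3, which completes proline synthesis, fell from 42.6, 51.4 and 45.4 CPM to 0.896, 1.33 and 0.825 CPM (-5.51 ± 0.57; adjusted p = 2.90e-09). The replicates of each group were close and far from those of the other group. Separate groups were a condition of naming the 12 lowest. CHO1, the phosphatidylserine synthase, fell 26.9-fold. The spindle protein FIN1 and STF1, a regulator of ATP synthase, were also among the 12 lowest, together with SMD1, a core protein of spliceosomal snRNPs whose annotation overlaps another gene, and IMG2 and RSM27 of the mitochondrial ribosome.

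Some small RNAs were reduced to a handful of counts. The snoRNA SNR57, which guides methylation of ribosomal RNA, gave 581 counts at 0 min and 3 at 50 min, a ratio of 200.4 (95% counting interval 68.2 to 974). SNR55 gave 189 and 3 counts (ratio 65.2; 22.0 to 319), and SNR61 gave 68 counts at 0 min and none at 50 min, at least 23.5-fold lower when set against a floor of 3 counts over the group. These 3 genes lie next to one another on chromosome XII. SNR14, the U4 snRNA, fell from 9.21, 21.7 and 17.4 CPM to 0.896, 0.444 and 0.412 CPM, with no overlap (edgeR adjusted p = 1.39e-08). SNR13 was also called. Of 77 small nucleolar and nuclear RNAs 9 were called lower (11.7%, near the 10.6% of all features) and 0 higher, with a median of -0.46. The median rested on single libraries, at -0.18 (8 called) without 50 min replicate 2 and -0.97 (13 called) without 50 min replicate 1. Mature RNAs of this size are stable, and these values refer to the labelled fraction.

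The transcription machinery itself changed unevenly. RNA polymerase II subunits, a list that includes those shared with the other RNA polymerases, had the lowest median of the lists (-0.71). Of its 12 members 6 were called lower (50.0%, beside 10.6% of all features), among them RPB7, RPC10, RPO26 and RPB3. RPB3 had 150, 141 and 146 CPM at 0 min and 68.0, 69.8 and 70.1 CPM at 50 min, so the spread was small beside the decrease (log2 -1.07 ± 0.08, SE; adjusted p = 1.38e-12, edgeR). In TFIIH, TFB1 and the helicase RAD3 (-0.77) were called lower, while TFB2, TFB3, TFB4, TFB5, KIN28, CCL1, SSL1 and SSL2 lay between -0.06 and 0.55 and were not called. In TFIID 4 of 15 were lower (26.7%): TAF4 (-2.14), TAF14 (-1.50), SPT15, the TATA-binding protein (-1.07), and TAF9 (-0.71). Mediator had 2 of 25 lower (8.0%, under the share of all features), MED7 and RGR1. The general regulatory factors had 0 of 6 called in either direction, with values from -0.46 for RAP1 to 0.26 for REB1 and CBF1, TBF1, MCM1 and ABF1 between them (1 higher and 1 lower at an unadjusted p under 0.05 in edgeR, and 0 calls by DESeq2). Sm proteins had 1 of 7 lower (SMD1).

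Of 19 cytosolic tRNA synthetases 9 were called lower (47.4%, beside 10.6% of all features) and 10 were not called. All 19 log2 fold changes were below 0, with a median of -0.58. DPS1, the aspartyl-tRNA synthetase, had 171, 168 and 149 CPM at 0 min and 31.1, 23.3 and 21.9 CPM at 50 min, a 6.36-fold decrease (adjusted p = 5.16e-11, edgeR), and FRS1, TYS1 and CDC60 fell by 1.56, 1.54 and 1.44 on the log2 scale. Of 93 ribosome biogenesis genes 36 were called lower (38.7%), 0 higher and 57 neither, 90 were below 0 and the median was -0.46. SSF2, BRX1, UTP11 and RPF1 had the lowest values, from -2.49 to -1.79. Without replicate 2 of Abf1 50 min 29 were called.

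Cytosolic ribosomal protein genes had a comparable median (-0.55) with few calls, 12 of 137 lower (8.76%, under the share of all features) and 0 higher, although 135 of 137 values were below 0. The count rested on single libraries. It was 4, with a median of -0.28, without 50 min replicate 2, 76, with a median of -0.93, without 50 min replicate 1, and 5 and 7 without 0 min replicates 1 and 2. In WT the same genes had a median of 0.21. RPP1A, an acidic protein of the ribosomal stalk, was the lowest, with 54.7, 59.0 and 51.3 CPM at 0 min and 20.9, 7.78 and 13.8 CPM at 50 min (adjusted p = 9.78e-05, edgeR). RPS28A, RPL4B and RPL29 were also called, RPL29 not without 50 min replicate 2. Several of these genes have near-identical copies, so that their counts are uncertain. Translation factors had 10 of 36 lower (27.8%, beside 10.6% of all features), with a median of -0.19 (-0.10 without 50 min replicate 2 and -0.32 without 50 min replicate 1). HYP2, the factor eIF5A, was higher at 1.56-fold, a call that was lost without any of 3 of the 6 libraries. SUP35, the translation termination factor, had 439, 488 and 446 CPM at 0 min and 47.3, 56.7 and 68.0 CPM at 50 min, an 8.0-fold decrease with no overlap (log2 -3.00 ± 0.16, SE; adjusted p = 7.92e-16, edgeR). The initiation factors TIF1, HCR1 and TIF35 were called at -3.00, -2.39 and -1.26. TIF1 has a near-identical copy.

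In protein folding and turnover the decreases fell on particular subunits. Of 34 proteasome genes 12 were called lower (35.3%, beside 10.6% of all features), but the list median was 0.12 (0.02 without 50 min replicate 1) and 21 values lay above 0. RPN1, a scaffold of the regulatory particle, had 1034, 1110 and 1022 CPM at 0 min and 219, 255 and 229 CPM at 50 min, the smallest adjusted p among the named genes (log2 -2.17 ± 0.07, SE; adjusted p = 2.78e-20, edgeR). SCL1 (-2.78), RPN8 (-2.33) and PRE10 (-1.88) were lowered alongside. The CCT chaperonin, which folds actin and tubulin, had 3 of 8 called lower (37.5%), CCT5 (-2.59), CCT8 (-1.93) and CCT4 (-1.34), and 7 of 8 below 0. Without 0 min replicate 3 or 50 min replicate 1, 5 were called.

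Mitochondrial protein import had 12 of 32 lower (37.5%), with a median of -0.18 (-0.07 without 0 min replicate 2 and -0.29 without 0 min replicate 1). MGE1, a cochaperone of the matrix Hsp70, had 109, 116 and 94.5 CPM at 0 min and 4.48, 5.78 and 4.33 CPM at 50 min, a 22.0-fold decrease (adjusted p = 2.44e-14, edgeR), and MAS1 (-2.75), TOM70 (-2.33) and TOM7 (-2.30) were also called. Of 56 mitochondrial ribosomal proteins 14 were lower (25.0%), with a list median of 0.08 (0.01 without 0 min replicate 3), among them MRP49 (-4.45), MRPL32 (-4.02), MRPL28 (-2.21) and MRP51 (-2.04). Respiratory chain genes had 7 of 39 lower (17.9%) and a median of 0.14 (0.06 without 0 min replicate 2), led by QCR9, ATP14, ATP16 and COX6. Of these 3 lists 0 members were called higher by edgeR or DESeq2.

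High-count genes that fell included SEC16, which organises exit sites of the endoplasmic reticulum. SEC16 had 1192, 953 and 1193 CPM at 0 min and 62.1, 75.8 and 87.2 CPM at 50 min, a 14.9-fold decrease (log2 -3.89 ± 0.21, SE; adjusted p = 8.17e-16, edgeR). GCN1, a sensor of stalled ribosomes, fell 3.93-fold from 1276, 1413 and 1405 CPM, and XRN1, the main cytoplasmic 5′ to 3′ exonuclease of mRNA decay, 2.46-fold from 1120, 1189 and 1234 CPM. The ribosome assembly protein REA1 (-0.82), the translational repressor SSD1 (-0.62) and the chromatin remodeller SNF2 (-0.59) complete the 6 most counted lower genes. REA1, SSD1 and SNF2 lost their call without single libraries. Without replicate 2 of Abf1 50 min the adjusted p was 0.0223 for REA1 and 0.0172 for SNF2 (edgeR). REA1 was also not called without 0 min replicate 3 or 50 min replicate 1. SNF2 was also not called without 0 min replicate 1 or 3, or without 50 min replicate 1 or 3. SSD1 was not called without 0 min replicate 3 or 50 min replicate 1.

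The remaining lists had shares called lower that are read against the 10.6% of all features. Of amino acid synthesis genes 9 of 62 (14.5%) were lower, with PRO3, ARO3, TRP3 and THR4 the lowest. ARO3, which starts aromatic amino acid synthesis, fell 23.4-fold. Nuclear pore genes had 8 of 33 lower (24.2%), led by GLE2, POM152, NUP49 and NUP57. DNA replication had 5 of 47, the same 10.6% as all features, among them POL31, DPB4, POL12 and RAD27. Sterol genes had 4 of 30 lower (13.3%; NPC2, HMG2, ERG10 and ERG27), COPII coat and cargo receptors 3 of 17 (17.6%; SEC16, ERV25 and ERV46), COPI and the SEA complex 1 of 7 each (14.3%; COP1 and SEA4), and the phosphate regulon 4 of 20 (20.0%; PHO85, VTC1, PHO3 and PHO2). Shares under that of all features were found in the iron regulon, with 1 of 22 lower (4.55%; SIT1), and in genes of peroxisomes and fatty acid breakdown, with 1 of 36 (2.78%; PEX3). Core histones, the mating pathway, drug efflux, galactose genes, DNA damage response and the seripauperin genes had 0 calls in either direction by edgeR, of 10, 29, 12, 8, 13 and 7 tested. At an unadjusted p under 0.05 drug efflux had 8 genes higher, DNA damage response 5, the mating pathway 4 higher and 2 lower, galactose genes 2 higher, seripauperin genes 1 higher and core histones 0. DESeq2 gave 0 calls in these 6 lists as well. Without 0 min replicate 1 or 50 min replicate 2 the DNA replication count was 3, with RAD27 among the calls lost, and PHO3 was not called without either.

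**Figure D3:**
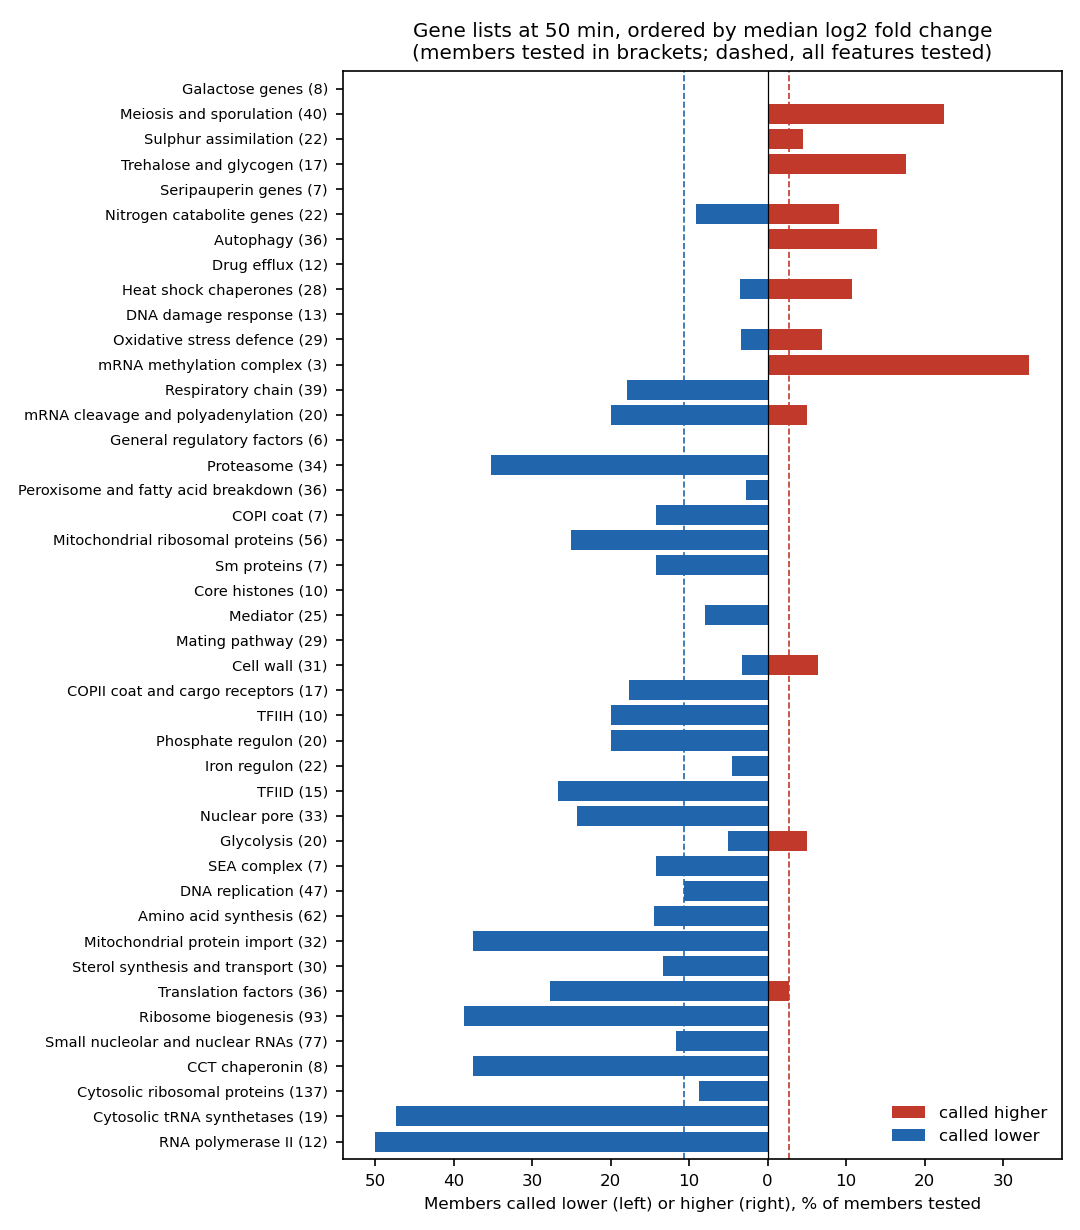
Share of the members tested that were called lower (left, blue) or higher (right, red) in each of 43 gene lists, ordered by median log2 fold change, with dashed lines at 2.66% and 10.6% for all features tested. RNA polymerase II and tRNA synthetases lie at the end with the lowest medians, and meiosis and sporulation has 22.5% called higher and none lower.

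The Abf1 motif, which the test did not use, was common in the windows of genes that fell. It was present for 406 of the 605 lower genes (67.1%), 15 of the 152 higher genes (9.87%), 5.88% of the genes not called and 12.5% of all tested genes matched to RefSeq. The strict form TCACNNNNNACG was present for 32.1% of lower, 5.92% of higher and 6.09% of all tested genes. Read the other way, 57.0% of the 712 genes with the motif were called lower and 2.11% higher, with a median log2 fold change of -0.85. Genes without the motif had 3.99% lower and 2.75% higher, with a median of 0.10. Of the 507 lower genes called without each library in turn 71.6% had the motif. In the lower genes the first match began at a median of 162 bases before the gene start, beside 163 over all tested genes with a match. The letters AGGGG, the core of the stress response element, searched on both strands, were present for 34.2% of higher, 18.5% of lower and 21.7% of all tested genes, and for 21.1% of all RefSeq nuclear genes. TTACCCG, bound by the general regulatory factor Reb1 and also searched on both strands, was present for 5.26%, 1.16% and 7.54%, and for 6.90% of all RefSeq nuclear genes.

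**Figure D4:**
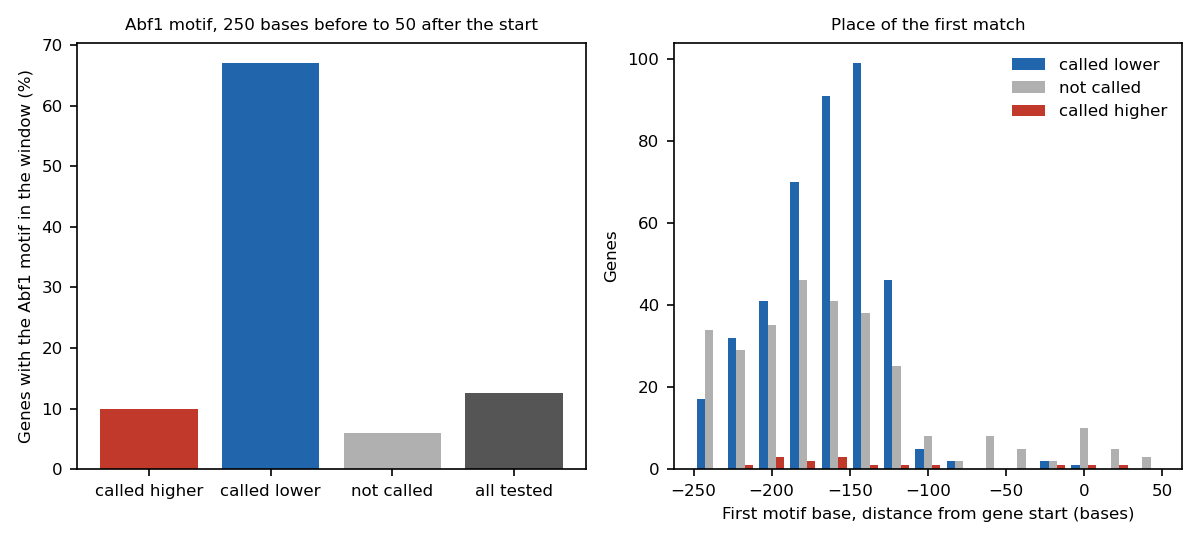
Left, share of genes (%) with the Abf1 motif in the window from 250 bases before to 50 after the gene start, by call at 50 min. Right, number of genes by the distance of the first motif base from the gene start in bases. The bars show 67.1% for lower genes beside 9.87% for higher genes. The matches of lower genes gather around 162 bases before the start, close to the median of 163 over all tested genes with a match.

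Genes often fell together with a divergent neighbour, the nearest gene upstream where that gene lies on the opposite strand. The neighbour was taken at any distance, so a shared promoter was not established. In the 10 pairs that moved in opposite directions the gap ranged from 260 to 1786 bases. Of 284 lower genes with a tested divergent neighbour, 136 (47.9%) had that neighbour called lower too, compared with 6.21% of the genes not called. This makes 68 pairs of the 1285 divergent pairs tested. In 60 of the 68 the Abf1 motif was in the window of at least 1 of the genes. Because 67.1% of all lower genes had the motif, most pairs of lower genes would have it in at least 1 window. The 60 are therefore not read as a trait of divergent pairs. Both genes were higher in 4 pairs, and 10 pairs had a higher and a lower gene. Those 10 are 14.1% of the 71 higher genes with a tested divergent neighbour, close to the share over all tested genes, of which 286 of 2609 had a lower divergent neighbour. In the pair of PHO92, a reader of m6A, and WIP1, a kinetochore protein, the promoter region was 362 bases long. PHO92 gave 1 count at 0 min and 25 at 50 min (ratio 24.2; 95% counting interval 3.96 to 992), and WIP1 gave 52 counts at 0 min and none at 50 min, at least 17.9-fold lower against a floor of 3 counts over the group. Both genes were thus near or at 0 in the group where they were low, and PHO92 was not called without 0 min replicate 1 or 2.

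The other opposite pairs named by rule were the noncoding RNA RUF21 with RPO41, the mitochondrial RNA polymerase, YIL134C-A with SNR68, and YDL144C with CCT4. RUF21 had no counts at 0 min and 18 at 50 min, at least 5.80-fold higher against the floor, and it was called without only 2 of the 6 libraries. RPO41 fell by 1.21 on the log2 scale. YDL144C had 72.9, 63.3 and 56.7 CPM at 0 min and 107, 135 and 128 CPM at 50 min, while CCT4 had 265, 256 and 229 CPM and then 109, 87.1 and 101 CPM. Neither gene overlapped between groups (log2 0.93 ± 0.14 and -1.34 ± 0.10, SE; edgeR adjusted p = 4.56e-06 and 6.56e-13). The pair of SCC4, a loader of cohesin, and SPT15, chosen after its values were seen, moved by 1.18 and -1.07, with SCC4 at 66.4, 52.5 and 53.9 CPM before and 117, 137 and 137 CPM after.

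Higher genes were also found directly upstream of genes that fell, in the same orientation. Of 74 higher genes with a tested tandem gene downstream, 19 (25.7%) had it called lower, compared with 11.5% of all such genes. Among the 19, SPO19, RNP1, CPP3, YIL134C-A and YKR015C had too few counts at 0 min for the count filter. They passed it through libraries in which they were higher, so their pairs add no support. The counts given here include them, and the share without them was not computed. In 10 of the 19 pairs the Abf1 motif was in the window of the downstream gene, a smaller share than the 186 of all 288 lower genes in that position. The upstream gene was higher for 10 of these 186 (5.38%) and for 9 of the 102 lower genes without the motif (8.82%), and the difference was not tested. The pairs with the largest increases were SPO19 and TAF14, RNP1 and the bile acid transporter gene YBT1, CPP3 and ARO3, YIL134C-A and VHS2, YKR015C and YPT52, and REC102 and CHS5, named after their values were seen. REC102 ends 330 bases before CHS5, which encodes a Golgi protein for sorting of chitin synthase. CHS5 had 381, 388 and 357 CPM at 0 min and 66.3, 85.6 and 82.9 CPM at 50 min, a 4.81-fold decrease, beside the rise of REC102 given above. Of BDF1, a bromodomain protein, and SKI2, an RNA helicase of the exosome pathway 516 bases further on, BDF1 had 395, 506 and 479 CPM and then 760, 988 and 887 CPM. SKI2 had 563, 582 and 611 CPM and then 62.0, 80.2 and 78.1 CPM. Both changes exceeded the replicate spread (log2 0.93 ± 0.10 and -3.00 ± 0.14, SE; edgeR adjusted p = 5.38e-09 and 1.34e-17). Reads that continue from an upstream gene into the next cannot be told apart here from reads that start at the next gene.

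The levels over the time course place 50 min near the plateau of the decreases. The 605 lower genes had a median log2 ratio to 0 min of -0.27 after 5 min, which went to -1.03 by 20 min, -1.32 by 50 min and -1.23 by 90 min (ratio of mean CPM with 0.5 added; the genes were chosen at 50 min and all times share the 0 min libraries, so no test is given). The 152 higher genes had medians of 0.32, 0.49, 0.82 and 0.85 at these times, and of 0.44 at 10 min and 0.37 at 15 min. TFB1 was at 3.58 ± 0.718 CPM (SD, n = 3) by 20 min and 1.55 ± 0.412 CPM at 50 min, while NPC2 was still at 12.2 ± 3.52 CPM at 20 min and reached 1.50 ± 0.271 CPM at 50 min. RPN1 was lowest at 50 min, with 234 ± 18.5 CPM, and stood at 349 ± 20.0 CPM at 90 min. VIR1 was at 2282 ± 243 CPM at 20 min, 5461 ± 917 CPM at 50 min and 4051 ± 321 CPM at 90 min. HSP12 did not climb steadily: it was at 45.9 ± 20.5 CPM at 0 min, 99.3 ± 33.8 CPM at 10 min and 50.3 ± 10.9 CPM at 15 min. It had not levelled by 50 min, with 73.6 ± 17.4 CPM at 20 min, 197 ± 50.7 CPM at 50 min and 361 ± 113 CPM at 90 min. ATG36 was already at 53.9 ± 5.30 CPM at 20 min, beside 61.0 ± 3.92 CPM at 50 min.

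**Figure D5:**
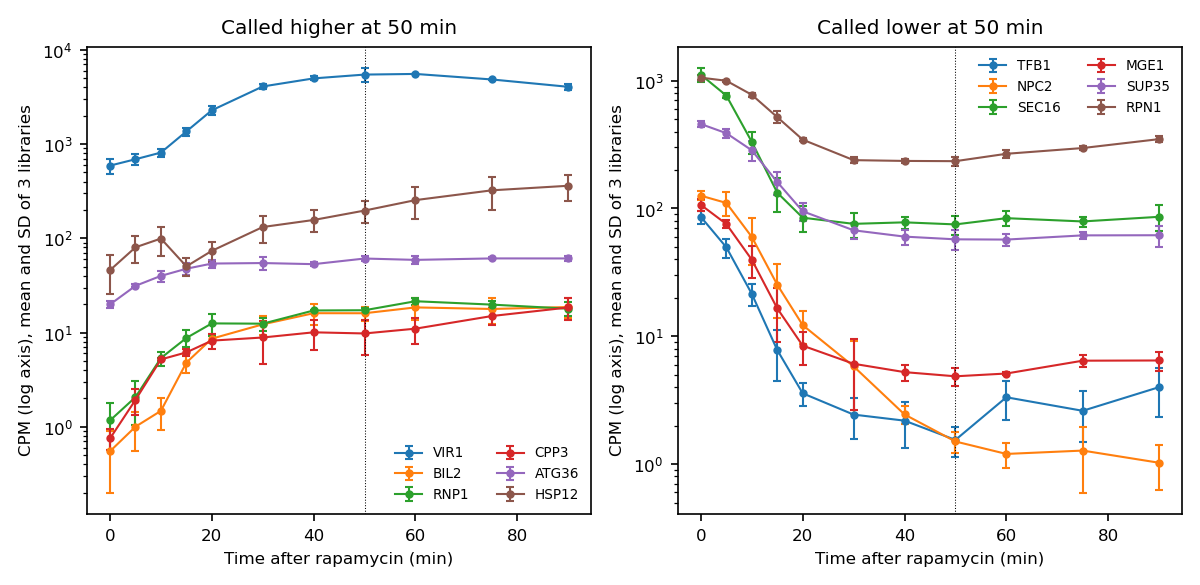
Mean level in CPM (log axis) with the SD of 3 libraries at the 11 times after rapamycin (horizontal axis, min) for 6 genes called higher and 6 called lower at 50 min (dotted line). VIR1 climbs to 5461 CPM at 50 min and HSP12 goes on to 361 CPM at 90 min, while SEC16 lies between 75.0 and 86.1 CPM from 20 min on.

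Rapamycin was also tested in WT, where it cannot remove Abf1. By edgeR 0 genes were called higher and 0 lower at WT 90 min against WT 0 min, with 224 (3.91%) and 280 (4.89%) at an unadjusted p under 0.05, and DESeq2 gave 0 and 0. In a fit of the 6 WT libraries alone, which estimates its spread from them only, 26 were called higher and 7 lower. The genes called higher at 50 min had a median of 0.07 in WT and the genes called lower -0.02. Whether rapamycin acted differently in the tagged strain and in WT was tested directly, although the times differ (50 min in the tagged strain, 90 min in WT). It was called in the same direction for 491 of the 605 lower genes but for 41 of the 152 higher genes, beside 8.83% and 1.03% of all features. This contrast contains the 50 min change by which these genes were chosen, from the same libraries, so the overlap is not independent support. VIR1 (3.32 ± 0.17, SE; adjusted p = 2.20e-15, edgeR), BIL2, RNP1, CPP3, ATG36, FMP48, DUR3 and ATG1 were among the 41, and HSP12 (adjusted p = 0.0224), CTT1 and REC102 were not.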

How the data were processed

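Nascent RNA of 39 yeast libraries (13 groups of 3) was measured by 4tU-seq, and samples were grouped by their titles. The authors deposited raw counts per feature, made from reads aligned to sacCer3 with HISAT2 2.0.5 and assigned with featureCounts of Subread 1.6.5, with identical molecular identifiers merged. Strand use in counting is not stated in the sources used here, so overlapping, antisense and near-identical genes are uncertain. A deposited table of the authors' DESeq2 log2 fold changes and adjusted p-values was not used.

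Counts were fitted in edgeR 4.0.16 (R 4.3.3, limma 3.58.1) by robust quasi-likelihood with TMM factors and filterByExpr (minimum count 10), with 1 coefficient per group over all 39 libraries. The filter kept 5722 of 6420 features, 5702 of which were matched to RefSeq by identifier. p-values were adjusted by Benjamini-Hochberg over all features tested. A gene was called at an adjusted p under 0.01 and a fold change over 1.5. Levels are CPM on TMM-adjusted library sizes and are not corrected for gene length. Standard errors are the absolute log2 fold change divided by the root of F. Floors (3 counts over a group) and exact 95% intervals of count ratios cover counting error only. Total counts were 4924056 to 5467295 at 0 min and 4707932 to 6509811 at 50 min, and no library was a copy of another. No reference RNA is described, so a change common to every gene cannot show.

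The members and the 43 gene lists were chosen with earlier results of these data known, so lists are described by counts and medians without a test. Genes were named by rule: ABF1, TOR1 and FPR1; among called genes averaging 50 counts or more in the group where they are higher, with separate groups and 1 direction in all 3 same-numbered pairs, the 12 highest and 12 lowest fold changes and the 6 higher and 6 lower genes with the largest level; up to 4 called members per list and direction; the 4 opposite divergent pairs that differ most; and all members of the mRNA methylation complex, TFIIH and the general regulatory factors. Other named genes were chosen after their values were seen: PNC1, UBI4, ATG8, SCC4, BDF1, SKI2 and the tandem pairs. TOR1 changed by 0.21 on the log2 scale and was not called. Alternatives were DESeq2 1.42.0, other size factors, no count filter, fewer libraries in the fit, a replicate block, other thresholds and leaving out each library in turn. The scripts were tested on simulated data.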

Additional observations from a re-analysis of the deposited data

Results flagged for a closer look

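The effect of rapamycin differed between the tagged strain and WT in a test of the difference itself, (Abf1 50 min against Abf1 0 min) against (WT 90 min against WT 0 min), in which 59 genes were called higher and 505 lower by edgeR. The treatment times of the strains differ, and time and strain cannot be told apart in this contrast. Without Abf1 50 min replicate 2, Abf1 0 min replicate 2 or Abf1 50 min replicate 1, the number higher was 24, 39 or 115. Among the named genes called higher at 50 min, VIR1 and ATG36 were called in this contrast and HSP12 and HSP30 were not.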

How the results depend on the processing

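The number of increases depended on the alternative more than the number of decreases. The 605 lower genes became between 421 (fold change minimum 2) and 713 (replicate block over the 33 tagged libraries), within 1.5 times in each case, and between 558 and 695 with single libraries left out. The 152 higher genes became 56 in a fit of the 6 libraries alone, 52 with a fold change minimum of 2, 231 at an adjusted p under 0.05, and between 81 (without 50 min replicate 2) and 162 (without 50 min replicate 1), with 90 without 0 min replicate 1. With single libraries left out, 42 higher and 507 lower genes were called in every case, and 21 and 415 were called in every alternative run. Of the 42, 25 were also called in the difference from WT, which shares the 50 and 0 min libraries. Of those with a tested tandem gene downstream, 11 of 23 had it called lower, as did 8 of 51 among the 110 higher genes that lost their call. The share over all tested genes in that position was 11.5%. The 11 include SPO19, RNP1, CPP3 and YIL134C-A, which passed the count filter through libraries in which they were higher. These counts therefore add no support. DESeq2 called 170 higher and 649 lower.

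Same-numbered libraries of 0 and 50 min were compared by the correlation of their deviations from the group means over 4706 genes, which was 0.49, -0.05 and 0.23 for numbers 1, 2 and 3, so the numbers were not taken as pairs and replicate 2 did not correlate best with its own number. With the replicate block in the 6 libraries 47 genes were called higher and 440 lower, and over the 33 tagged libraries 225 and 713. In the 6 libraries with the block the number called lower was 6 in mitochondrial import (12 without it), 2 in cytosolic ribosomal proteins (12), 6 in translation factors (10), 9 in mitochondrial ribosomal proteins (14), 25 in ribosome biogenesis (36) and 6 in tRNA synthetases (9), and the number called higher was 3 in meiosis and sporulation (9) and 1 in autophagy (5). In WT the 0 and 0 calls became 26 and 7 in a fit of the 6 WT libraries and 38 and 13 with the replicate block in them. The difference between strains gave 33 higher genes in a fit of the 12 libraries, and between 24 and 115 with single libraries left out. The cause of these shifts was not tested.

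Of the 181 genes run one by one, 124 kept direction and call in every alternative and 50 lost their call in at least 1. Signs turned only for genes that were not called, with single libraries left out: MCM1 lay between -0.16 and 0.30, TFB4 between -0.019 and 0.071, TBF1 between -0.13 and 0.14, KAR4 between -0.20 and 0.21, TFB2 between -0.15 and 0.029 and TFB3 between -0.16 and 0.086 on the log2 scale. Counts near 0 limit fold changes of genes such as SNR61, WIP1 and RUF21, which are given as bounds.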
